A study of Mus musculus with 33 samples.

Results

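Kinesins are motor proteins that use ATP to walk along microtubules or to take tubulin off microtubule ends. Some of them build the meiotic and mitotic spindle and the midzone of the dividing cell, and others carry vesicles, organelles, RNA or the building material of cilia. A germinal vesicle oocyte is arrested in prophase of the first meiosis and stores messenger RNA for the divisions to come, spindle factors among them. The kinesin genes were taken from the deposited count table as all genes whose symbol is Kif followed by a number and, in some, further letters and digits. This gave 39 of 35321 genes. One of them, Kif16bos, is no kinesin but a transcript on the opposite strand beside Kif16b, which it does not overlap, and it had only 4 reads over all oocytes. The other 38 comprised 13 kinesins of the spindle and of cytokinesis, 13 of cargo transport and 12 with other roles, such as those of cilia, centrioles and signalling. The list as a whole was chosen by symbol. Kif3b was selected on its measured log2 fold change between SN Nlrp5 -/- and Nlrp5 +/+ oocytes, among the largest in an earlier pass through these data. Its values in that contrast, and in any other that uses the same SN -/- oocytes, are therefore a description and support nothing.

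The data are RNA libraries of 33 single germinal vesicle oocytes from 3-week-old females on a C57BL6/Babr background. Nlrp5 encodes a core protein of the subcortical maternal complex of the oocyte, and the mutant allele is a deletion made with CRISPR/Cas9 that shifts the reading frame. Stage was the non-surrounded nucleolus (NSN) or the more mature surrounded nucleolus (SN) configuration, which the study inferred from the expression of marker genes that include no kinesin, so stage and expression are not independent. There were 4 NSN and 6 SN oocytes of Nlrp5 +/+, 9 NSN and 7 SN oocytes of Nlrp5 +/-, and 4 NSN and 2 SN oocytes of Nlrp5 -/-, and 1 Nlrp5 -/- oocyte, number 15, had no stage. No label ties an oocyte to a mouse, so each combination of genotype and stage counts as 1 sample, no test between groups was made, and each SD describes the spread between cells. Mutant females, homozygous or heterozygous, shared litters, and the +/+ females had mostly been bred apart from them. Each of 10 first index sequences occurred with 1 genotype only, so genotype and library set cannot be told apart, nor can breeding in comparisons with +/+ oocytes.

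Between 4223595 and 15573360 reads per oocyte were counted on genes. Nlrp5 itself was between 10110 and 29130 normalized counts in +/+ oocytes, between 5062 and 13470 in +/- oocytes and between 1362 and 2556 in -/- oocytes, so the -/- oocytes lay apart from all others. All 8 oocyte markers had reads in each group. Of 16 granulosa cell markers, 12 had a mean under 50 normalized counts in +/+ oocytes, and the other 4 (Serpine2, Nr5a2, Cyp19a1 and Kitl) were also expressed there, so the 12 are given below. They summed to 1.38 to 12.1 CPM (reads per 1000000 counts) in +/+ oocytes, to 1.18 to 27.8 in +/- oocytes and to 9.73 to 306.6 in staged -/- oocytes, with Inhbb, Amh, Foxl2 and Fst at 0 in NSN +/+ oocytes and Wt1 at 0 in SN -/- oocytes. Oocyte 15 reached 907.9 CPM for the same markers and entered no comparison within a stage.

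Spindle kinesins were the most abundant kinesins of these oocytes. In Nlrp5 +/+ oocytes the median spindle kinesin had a level of 122.5 normalized counts per kb of exon, against 20.7 for transport kinesins and 1.46 for the other kinesins. A mean of at least 100 normalized counts was reached by 10 of 13 spindle, 8 of 13 transport and 2 of 12 other kinesins. Over all 33 oocytes, 30 of the 39 members had a mean of at least 10 normalized counts and 9 lay under it. Kif12 and Kif2b had no read in any oocyte, which among 275992373 counts allows at most 0.0109 CPM.

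Among spindle kinesins of +/+ oocytes, Kif22, a chromokinesin that pushes chromosome arms along the spindle, was at 532.5 ± 168.0 normalized counts per kb (SD, n = 10 oocytes). Kif23, the motor of the centralspindlin complex of cytokinesis, was at 493.5 ± 83.2 per kb, and Kif4, a chromokinesin of the spindle midzone, was at 354.5 ± 59.4 per kb. The ranges of Kif22 and Kif23 overlapped, and below these came Kif2c, a microtubule depolymerase, at 249.3 ± 75.1 per kb and Kif20a, which brings the chromosomal passenger complex to the midzone, at 210.5 ± 43.1 per kb. Kif11, the plus-end motor that keeps spindle poles apart, was lower, at 71.2 ± 25.7 per kb, and Kif15, which can share that work, was at 3.65 ± 1.71 per kb. The span of Pdzd11 overlaps that of Kif4, and those of Mettl15, Cdc23 and Dimt1 overlap Kif18a, Kif20a and Kif2a. Without a stated strand, some reads counted on these kinesins may come from the overlapping genes, and overlap of exons was not examined.

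Among transport kinesins, Kif17, known for carrying vesicles in dendrites and for its place in cilia, stood far above the others at 213.8 ± 51.3 normalized counts per kb in +/+ oocytes (SD, n = 10). It was followed by Kif3a, a motor subunit of heterotrimeric kinesin-II, at 70.3 ± 12.4 per kb and by Kif16b, a carrier of early endosomes, at 38.01 ± 13.12 per kb. Kif3b, the partner of Kif3a in that motor, was at 28.2 ± 8.87 per kb, in the same range as Kif5c and Kif5b, which are heavy chains of conventional kinesin, at 35.1 ± 10.2 and 20.7 ± 5.09 per kb. The neuronal forms Kif1a and Kif5a were close to absent in +/+ oocytes, at 0.0472 and 0.0512 per kb. Of the other kinesins, Kif24, which acts at centrioles, led with 56.8 ± 10.9 per kb, followed by Kif9, a kinesin of motile cilia and flagella, at 25.1 ± 8.16 per kb.

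**Figure D1:**
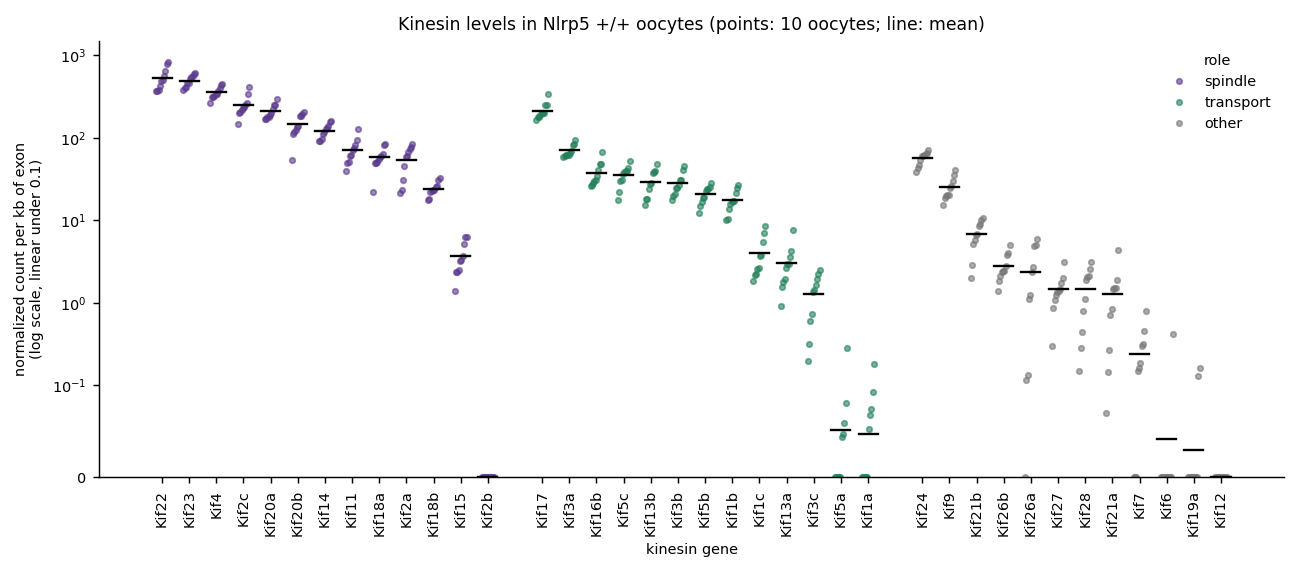
Normalized count per kb of exon (vertical axis, log scale that is linear under 0.1) of the 38 kinesin genes (horizontal axis), ordered by level within the spindle, transport and other roles, in the 10 Nlrp5 +/+ oocytes (points) with their mean (line). Spindle kinesins reach 532.5 per kb with Kif22, Kif17 stands alone among transport kinesins at 213.8, and Kif2b and Kif12 lie at 0.

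Together the kinesins took 2403 to 2947 CPM in +/+ oocytes, 2184 to 2990 in +/- oocytes and 2269 to 2992 in -/- oocytes. Spindle kinesins held 70.1% to 78.6% of these reads in +/+ oocytes and 68.4% to 77.1% in -/- oocytes. The summed levels of the family overlapped between genotypes. In the comparison of -/- with +/+ at the SN stage, the median log2 fold change of the 28 members with a mean of at least 10 normalized counts was -0.12, beside -0.0016 over all 13351 genes so measured. At the NSN stage it was 0.058 over 31 members, beside 0.0010 over 13833 genes.

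Kif3b, on chr2:153291413-153333390 (GRCm38, plus strand), was far lower in SN Nlrp5 -/- oocytes than in the other groups. Its normalized count was 112, 173, 99.3, 153, 118 and 228 in the 6 SN +/+ oocytes and 16.2 and 15.9 in the 2 SN -/- oocytes. Both -/- oocytes lay under the lowest +/+ oocyte, and their mean was lower by a log2 fold change of -3.12, or 8.69-fold. The reads behind it were 1204 in +/+ oocytes, or 17.8 CPM (95% Poisson interval 16.8 to 18.9), and 34 in -/- oocytes, or 2.08 CPM (1.44 to 2.90), intervals that cover counting error only. In the NSN stage the +/+ oocytes were at 141, 137, 254 and 176 normalized counts and the -/- oocytes at 35.1, 137, 50.5 and 115. There the -/- oocytes split into a low and a high pair, and the highest of them, at 136.5, lay just under the lowest +/+ oocyte, at 137.4. The mean log2 fold change at the NSN stage was -1.06. It came to less than 2-fold without -/- oocyte 13 (-0.81), without -/- oocyte 29 (-0.88) or without +/+ oocyte 79 (-0.84). Unstaged -/- oocyte 15 had 168.9 normalized counts of Kif3b, within the +/+ range.

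The same SN -/- values of Kif3b lay under all 7 SN +/- oocytes, which were at 169, 117, 105, 53.2, 84.1, 141 and 55.3 normalized counts. The log2 fold change was -2.61, and as it reuses the values that chose the gene it is a description only. The +/- oocytes lay between the other genotypes in their means, at 103.5 ± 43.0 in SN (SD, n = 7) and 130.9 ± 57.4 in NSN (n = 9), and overlapped +/+ oocytes at both stages (log2 fold changes of -0.50 and -0.43). One NSN +/- oocyte, number 61, had no read of Kif3b, which allows at most 4.06 normalized counts, while the other 8 were between 94.8 and 184.9. Without it the difference between NSN +/- and +/+ oocytes was -0.27.

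Kif3a, the partner of Kif3b in kinesin-II, was between 450.0 and 535.8 normalized counts in SN +/+ oocytes and at 495 and 565 in the SN -/- oocytes, a log2 fold change of 0.13, and at the NSN stage the value was 0.042. Kifap3, the cargo-binding subunit, was at 13.5 ± 8.61 normalized counts in SN +/+ oocytes (SD, n = 6) and 18.4 ± 8.81 in SN -/- oocytes (n = 2), a log2 fold change of 0.42 with overlapping ranges. At the NSN stage it was at 43.3 ± 28.2 in +/+ and 28.2 ± 19.9 in -/- oocytes (n = 4 each), a log2 fold change of -0.60, again with overlap. Kif3c, an alternative partner of Kif3a, was sparse. It was at 9.93 ± 8.22 in NSN +/+ and 18.4 ± 10.8 in NSN -/- oocytes, a log2 fold change of 0.83 with overlap, and did not reach a mean of 10 normalized counts in the SN comparison of -/- with +/+. The Kif3b level per kb was also divided by that of Kif3a in the same oocyte, a ratio that uses the same Kif3b reads that chose the gene and is a description only. It was 0.386 in the median NSN +/+ oocyte and 0.377 in the median SN +/+ oocyte. In -/- oocytes it was 0.0631, 0.289, 0.140 and 0.236 at the NSN stage and 0.0444 and 0.0383 at the SN stage. The lowest ratio in SN +/+ oocytes was 0.270 and the lowest in SN +/- oocytes was 0.162. The ratio of unstaged -/- oocyte 15, 0.715, was the highest of all 33 oocytes.

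**Figure D2:**
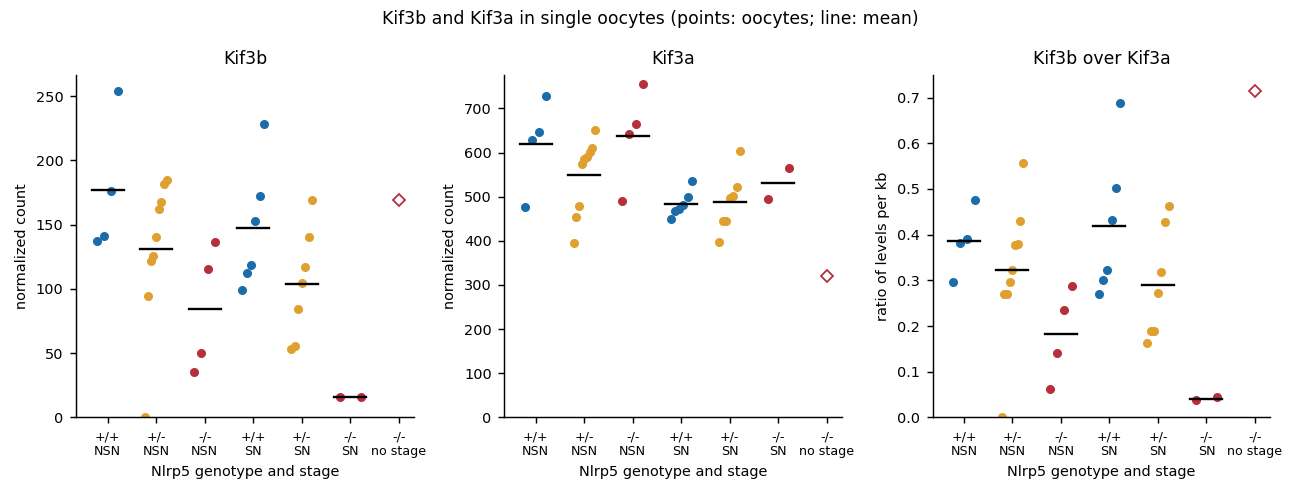
Normalized count of Kif3b (left) and Kif3a (middle) and the ratio of their levels per kb (right) in each oocyte (points), by Nlrp5 genotype and stage, with means (lines) and the unstaged -/- oocyte 15 (open diamond). Kif3b is at 16.2 and 15.9 in the 2 SN -/- oocytes and at 99.3 to 228.2 in the 6 SN +/+ oocytes, whereas Kif3a of the same oocytes overlaps.

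The promoters of both motor subunits are shown because Kif3b and Kif3a form 1 motor and gave unlike values. The 250 bases before the RefSeq start site (GRCm38.p6) are given in lower case, with capitals for CCAAT, the box bound by NF-Y, and for TTTGAA, the core of the cell cycle genes homology region, searched on both strands. The Kif3b stretch lies at chr2:153291166-153291415 and the Kif3a stretch at chr11:53567119-53567368, both on the plus strand.
Kif3b: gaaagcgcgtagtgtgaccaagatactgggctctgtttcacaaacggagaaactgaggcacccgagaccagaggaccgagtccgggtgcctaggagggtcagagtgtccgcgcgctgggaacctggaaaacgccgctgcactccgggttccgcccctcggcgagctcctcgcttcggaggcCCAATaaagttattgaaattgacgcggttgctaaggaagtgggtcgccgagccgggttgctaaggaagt
Kif3a: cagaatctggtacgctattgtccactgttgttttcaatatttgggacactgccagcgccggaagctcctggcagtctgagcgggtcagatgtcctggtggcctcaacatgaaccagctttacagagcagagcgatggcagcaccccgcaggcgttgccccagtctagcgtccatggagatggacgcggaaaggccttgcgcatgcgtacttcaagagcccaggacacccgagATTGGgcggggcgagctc
Each holds 1 CCAAT and no TTTGAA, with the CCAAT of Kif3b starting 69 bases before the start site and that of Kif3a, on the other strand, 18 bases before it. Among 27025 genes with a promoter in the table, 34.5% hold CCAAT and 16.3% hold TTTGAA in this window. A match is only a description of the letters.

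Of the 28 members measured at the SN stage, 2 were at least 2-fold lower in -/- than in +/+ oocytes, Kif3b and Kif21b, and 2 were at least 2-fold higher, Kif26b and Kif1c. Over all genes 5.99% were 2-fold lower and 4.07% 2-fold higher, and the members' shares were 7.14% each, near these. Every -/- oocyte lay under every +/+ oocyte for Kif3b, Kif20b and Kif4, beside 7.85% of all genes, and above for Kif1c, beside 7.24%. At the NSN stage 1 of 31 members, Kif3b, was 2-fold lower, beside 3.21% of genes, and 2 were 2-fold higher, Kif26a and Kif13a, beside 4.93%. There, groups did not overlap for Kif3b, lower, beside 3.14% of genes, and for Kif13a, higher, beside 3.96%.

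**Figure D3:**
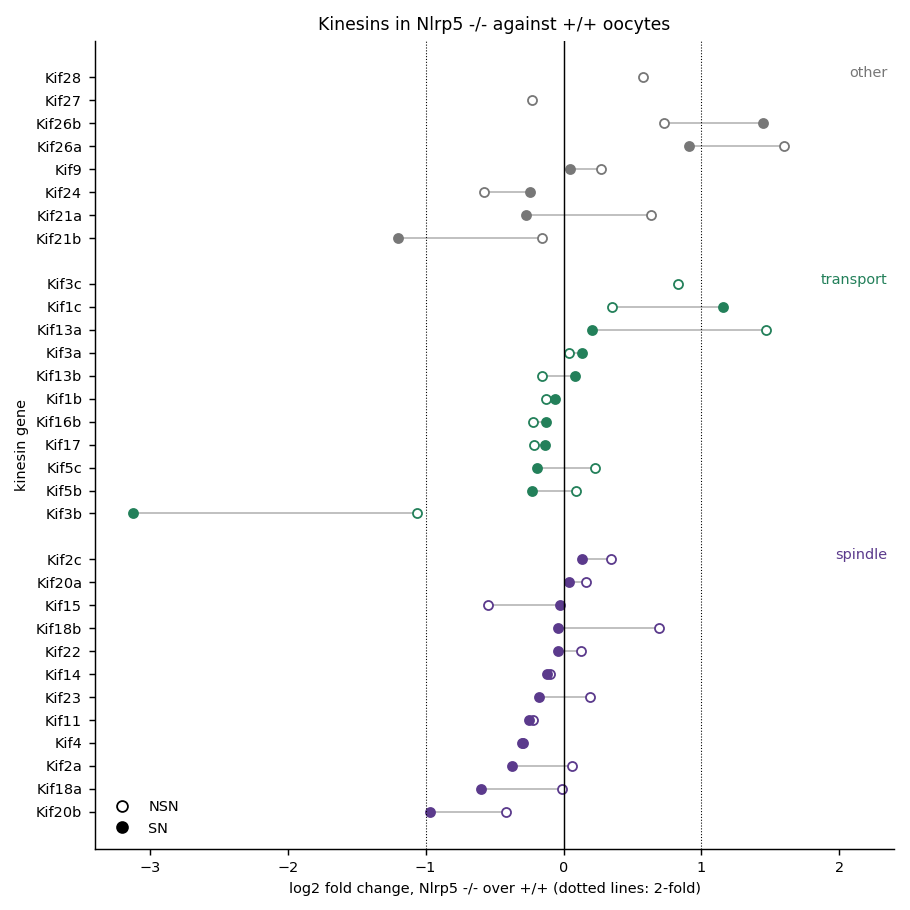
Log2 fold change of mean normalized counts, Nlrp5 -/- over +/+ (horizontal axis), for kinesin genes with a mean of at least 10 in the oocytes compared (vertical axis), at the NSN (open) and SN (filled) stages, by role. All 12 spindle kinesins lie within 2-fold at both stages, and Kif3b reaches -3.12 at the SN stage.

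Of the 12 spindle kinesins measured, none was 2-fold apart between -/- and +/+ oocytes at either stage. At the NSN stage 6 were higher and 6 lower, with a median log2 fold change of 0.024. At the SN stage 2 were higher and 10 lower, with a median of -0.15, and over all genes 6657 were higher and 6694 lower. For -/- over +/- oocytes 10 were higher and 2 lower in NSN (median 0.17), and 5 higher and 7 lower in SN (median -0.115). For +/- over +/+ oocytes 3 were higher and 9 lower in NSN (median -0.10), and 4 higher and 8 lower in SN (median -0.044). Kif20b, a midzone kinesin needed to complete cytokinesis, had the largest difference of the spindle kinesins between SN -/- and +/+ oocytes. It was at 1021, 1156, 947, 1674, 1567 and 1199 normalized counts in SN +/+ oocytes and at 475 and 813 in SN -/- oocytes, a log2 fold change of -0.97. The groups did not overlap, but SN +/- oocytes went down to 782.5 and overlapped the -/- pair, and at the NSN stage the range of -/- oocytes, 597.2 to 1370, lay within that of +/+ oocytes, 461.0 to 1776. Kif4 was at 2382 to 3457 in SN +/+ oocytes and at 2167 and 2296 in SN -/- oocytes, a log2 fold change of -0.30, with the limit of the overlapping Pdzd11. Kif23 and Kif22 overlapped between -/- and +/+ oocytes at both stages, with log2 fold changes of -0.18 and -0.043 in SN.

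Promoters of spindle kinesins are given for Kif11, an example with both motifs, and for Kif20b, the member with the largest difference and with none. They lie at chr19:37376132-37376381 and chr19:34922108-34922357 of GRCm38.p6 on the plus strand, and capitals are as above.
Kif11: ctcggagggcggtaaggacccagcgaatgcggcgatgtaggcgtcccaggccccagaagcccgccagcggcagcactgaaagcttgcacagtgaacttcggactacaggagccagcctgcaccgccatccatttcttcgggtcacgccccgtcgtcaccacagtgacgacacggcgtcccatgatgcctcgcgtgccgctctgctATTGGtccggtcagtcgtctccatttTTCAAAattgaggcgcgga
Kif20b: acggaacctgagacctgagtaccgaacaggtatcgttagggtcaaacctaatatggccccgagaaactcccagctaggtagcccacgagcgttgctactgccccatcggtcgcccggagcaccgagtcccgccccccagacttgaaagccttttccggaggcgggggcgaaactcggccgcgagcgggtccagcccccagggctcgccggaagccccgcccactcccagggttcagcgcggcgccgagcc
In Kif11 the CCAAT starts 45 bases and the TTTGAA 19 bases before the start site, both on the other strand, and they do not overlap. Of 12 spindle kinesins with a promoter in the table, 7 (58.3%) hold CCAAT, 5 (41.7%) TTTGAA and 3 (25.0%) both, beside 5.73% with both among all genes. Of 10 transport kinesins 3 hold CCAAT and 0 hold TTTGAA, and of 9 other kinesins 4 hold CCAAT and 2 hold TTTGAA. The RefSeq start of some members lies inside the gene as the count table places it, as for Kif14 and Kif2c, 1505 and 3867 bases in, so that the stretch before it may be no promoter. Among spindle kinesins whose start lies within 250 bases of that in the count table, 5 of 9 hold CCAAT, 3 TTTGAA and 2 both, beside 36.7%, 13.7% and 5.27% of 15648 genes so chosen. Kif11 was at 356.8 to 682.2 normalized counts in SN +/+ oocytes and at 298 and 601 in SN -/- oocytes, with a log2 fold change of -0.25 and overlapping groups.

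The members at least 2-fold higher in -/- oocytes were all of low abundance. Kif13a, which carries recycling endosomes, was at 8.06, 13.8, 37.8 and 23.6 normalized counts in NSN +/+ oocytes and at 79.4, 72.8, 44.2 and 41.6 in NSN -/- oocytes. All 4 -/- oocytes lay above the +/+ oocytes, with a log2 fold change of 1.47. In SN oocytes Kif13a was at 30.9 ± 19.0 in +/+ (SD, n = 6) and 35.8 ± 8.69 in -/- (n = 2), a log2 fold change of 0.21. Kif26a, a kinesin without motor activity that acts in signalling, was at 34.3, 0.922, 0 and 18.9 in NSN +/+ oocytes and at 101.5, 50.6, 14.2 and 5.94 in NSN -/- oocytes. The groups overlapped, and the log2 fold change of 1.60 was 0.76 without -/- oocyte 13 and 2.54 without +/+ oocyte 70.

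At the SN stage, Kif1c, a transport motor of vesicles and of RNA, was at 20.4, 56.2, 14.7, 68.7, 17.1 and 44.2 normalized counts in +/+ oocytes and at 97.2 and 69.5 in -/- oocytes. The lower -/- oocyte lay just above the highest +/+ oocyte, and the log2 fold change was 1.15. It was 0.90 without -/- oocyte 7 and 0.99 without +/+ oocyte 85. Kif26b, a relative of Kif26a known from kidney development and Wnt signalling, was at 35.9, 31.1, 41.1, 34.9, 20.3 and 73.9 in SN +/+ oocytes and at 153.8 and 65.1 in SN -/- oocytes. These overlapped, with a log2 fold change of 1.45 that was 0.71 without -/- oocyte 7. Kif21b, which tunes microtubule growth, was at 66.5, 73.3, 25.3, 116, 111 and 138 in SN +/+ oocytes and at 10.8 and 65.1 in SN -/- oocytes. Its log2 fold change of -1.20 was -0.43 without oocyte 7 and -2.92 without oocyte 31, so a single library decided it.

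Reads of granulosa cell markers are given beside these members because they were highest in some of the same libraries. In NSN -/- against +/+ oocytes 6 of 11 measured granulosa markers were 2-fold higher and 0 lower, beside 4.93% and 3.21% of all genes, with a median log2 fold change of 1.13. At the SN stage 4 of 9 were 2-fold higher and 0 lower, beside 4.07% and 5.99%, with a median of 0.20. A marker was measured where its mean over both groups reached the minimum set for all genes. In +/+ oocytes Inha, Inhbb, Gja1, Hsd17b1 and Fst lay under that minimum in NSN, and Gja1, Hsd17b1 and Fst in SN. Such markers were measured only through their -/- reads and could not count as lower. The counts and medians of granulosa markers therefore follow in part from the filter and are a description only. Inha, a subunit of inhibin, had a mean of 377.2 normalized counts in NSN -/- and 5.18 in NSN +/+ oocytes, and of 267.1 in SN -/- and 14.96 in SN +/+ oocytes. Gja1, a gap junction protein, was at 232.6 against 1.96 in NSN and at 65.8 against 9.45 in SN oocytes. Hsd17b1, an enzyme of estradiol synthesis, was at 117.6 against 0.84 in NSN and at 57.2 against 3.72 in SN oocytes.

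Single libraries carried most of these reads. Of the NSN -/- oocytes, number 14 had 306.6 and number 13 had 158.4 CPM for the 12 markers that are low in +/+ oocytes, against 18.8 and 9.73 in numbers 29 and 30, and the NSN +/+ oocytes had 2.70 to 7.52. Of the SN -/- oocytes, number 7 had 110.2 and number 31 had 14.7 CPM, and the SN +/+ oocytes had 1.38 to 12.1. Each of these -/- oocytes thus lay above every +/+ oocyte of its stage. The 12 markers were kept because they are low in +/+ oocytes, so this is a description only. Over all 16 granulosa markers the groups overlapped, at 287.2 to 672.3 CPM in NSN -/- and 279.4 to 475.0 in NSN +/+ oocytes. At the SN stage the sums were 329.2 and 419.6 in -/- and 317.8 to 411.9 in +/+ oocytes. Oocytes 13 and 14 were also the higher pair for Kif13a and Kif26a, and oocyte 7 was the higher SN -/- oocyte for Kif1c and Kif26b but not for Kif26a. Without oocytes 13 and 14 the NSN log2 fold change of Kif26a was -0.39, that of Kif13a was 1.01 and that of Kif3b was -1.09. Without oocyte 7 the SN log2 fold change of Kif3b was -3.13.

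Of 9 theca and interstitial markers, 8 were under 50 normalized counts in +/+ oocytes, and they summed to 14.6 and 28.0 CPM in the SN -/- oocytes, above the 5.26 to 7.84 of SN +/+ oocytes. At the NSN stage they summed to 18.2 to 238.6 in -/- and 12.9 to 23.0 in +/+ oocytes, which overlapped, and were highest in oocyte 14. The 10 of 11 markers of stroma, vessels and blood that were under 50, all but Pecam1, overlapped at both stages, at 10.9 to 54.8 CPM in NSN -/- and 0.892 to 18.5 in NSN +/+ oocytes, and at 7.83 and 28.9 in SN -/- and 5.65 to 18.1 in SN +/+ oocytes. The part of other ovarian cells in the differences of the kinesins was not tested. Nor was it tested for the partner, dynein, spindle assembly and tubulin genes given below.

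**Figure D4:**
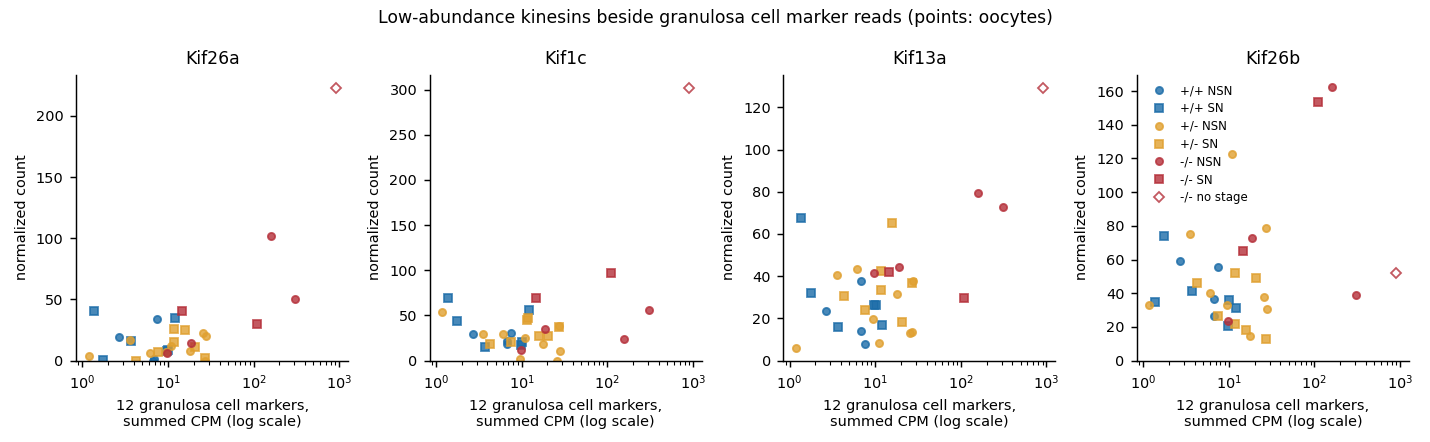
Normalized counts (vertical axes) of Kif26a, Kif1c, Kif13a and Kif26b in each of 33 oocytes (points, coloured by Nlrp5 genotype and shaped by stage) against the summed CPM of the 12 granulosa cell markers that are low in +/+ oocytes (horizontal axis, log scale). The unstaged -/- oocyte 15 lies apart at 907.9 CPM, with 222.7 normalized counts of Kif26a and 301.7 of Kif1c, while its Kif26b, at 52.1, lies within the others.

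The -/- oocytes were also compared with those of their Nlrp5 +/- littermates. At the SN stage 3 of 30 members were 2-fold higher, Kif26b, Kif1c and Kif26a with log2 fold changes of 1.73, 1.36 and 1.44, beside 3.35% of genes. Without oocyte 7 the value of Kif26b was 0.99, under 2-fold, and without oocyte 31 it was 2.22. For all 3 the -/- oocytes lay above every +/- oocyte, as did those of 5.25% of genes. Kif3b was the 1 member that was 2-fold lower, beside 5.56% of genes, and the 1 member below every +/- oocyte, beside 5.81%. At the NSN stage 2 of 29 members were 2-fold higher, Kif26a and Kif13a at 1.92 and 1.29, beside 3.07% of genes, and 0 were 2-fold lower, beside 3.43%. The value of Kif26a was 1.08 without oocyte 13. Without oocytes 13 and 14 it was -0.073 and that of Kif13a 0.83. No member was without overlap there, as in all but 0.476% of genes above and 0.686% below. These comparisons share the -/- oocytes with those against +/+ oocytes.

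Between +/- and +/+ oocytes no kinesin was 2-fold apart at either stage, and none was without overlap. The background was small too, with 2.03% of genes 2-fold higher and 1.09% lower in NSN oocytes and 1.14% higher and 0.805% lower in SN oocytes. Genes without overlap came to 0.175% above and 0.269% below in NSN oocytes and to 0.0226% above and 0.0602% below in SN oocytes. The most distant members were Kif13b at the NSN stage, with a log2 fold change of -0.63, and Kif15 at the SN stage, with 0.80. Kif13b, a transport kinesin, was at 9.48 in NSN +/- oocyte 61 and between 280.6 and 451.8 in the other 8.

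Between the NSN and SN stages of +/+ oocytes, 15 of 29 members were higher in SN and 14 lower. The median size of their log2 fold changes was 0.36, beside 0.34 over all genes. None of the 29 members was 2-fold apart and none was without overlap, beside 3.97% of genes 2-fold higher and 8.82% lower in SN, and 3.73% above and 6.07% below without overlap. The median log2 fold change with its sign was 0.014, beside 0.029. The largest increases were those of Kif22, Kif21a and Kif5c, with log2 fold changes of 0.63, 0.62 and 0.61. Kif22 was at 1883, 2515, 1909 and 1855 normalized counts in NSN and at 4183, 2449, 3966, 2160, 3279 and 2856 in SN +/+ oocytes, so that the groups overlapped through 1 NSN oocyte. Kif5c was at 250.4 to 512.7 in NSN and 423.5 to 736.3 in SN, and Kif21a was sparse, at 0.741 to 20.3 and 1.56 to 45.8. The log2 fold change of Kif21a was -0.0063 without SN oocyte 80 and 1.16 without NSN oocyte 87, so single libraries decided it. The largest decreases were those of Kif15, at -0.77, Kif13b, at -0.68, and Kif27, an orphan relative of Kif7, at -0.60. Kif15 was at 71.2, 41.5, 69.7 and 36.8 in NSN and at 57.4, 28.1, 26.4, 15.5, 26.5 and 36.2 in SN oocytes. Kif13b was at 365.8 to 629.8 in NSN and at 203.3 to 509.4 in SN oocytes. These members were named for the size of their difference, which is therefore a description.

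Between the same stages of +/- oocytes Kif22 and Kif5c had log2 fold changes of 0.40 and 0.79. In -/- oocytes the value of Kif22 was 0.46 and that of Kif5c was 0.19. The groups overlapped for Kif5c, whose value was -0.14 without SN oocyte 31 and 0.46 without SN oocyte 7. In +/- oocytes none of 29 members was 2-fold apart or without overlap, beside 2.02% of genes higher and 7.21% lower, and 0.514% above and 0.823% below. In -/- oocytes, 1 of 30 members was 2-fold higher in SN, Kif1c at 1.37, beside 3.32% of genes. Kif3b was the 1 member 2-fold lower, at -2.32 through the SN values that chose it, beside 11.4%. There, Kif22 and Kif1c lay above without overlap, beside 9.47% of genes, and Kif16b, Kif3b, Kif18b and Kif13b below, beside 10.8%. Kif18b, a depolymerase of astral microtubules, was at 113, 239, 142 and 135 in NSN and at 85 and 98.4 in SN -/- oocytes, while +/+ oocytes were at 69.9 to 127.2 in NSN and 70.8 to 123.1 in SN.

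**Figure D5:**
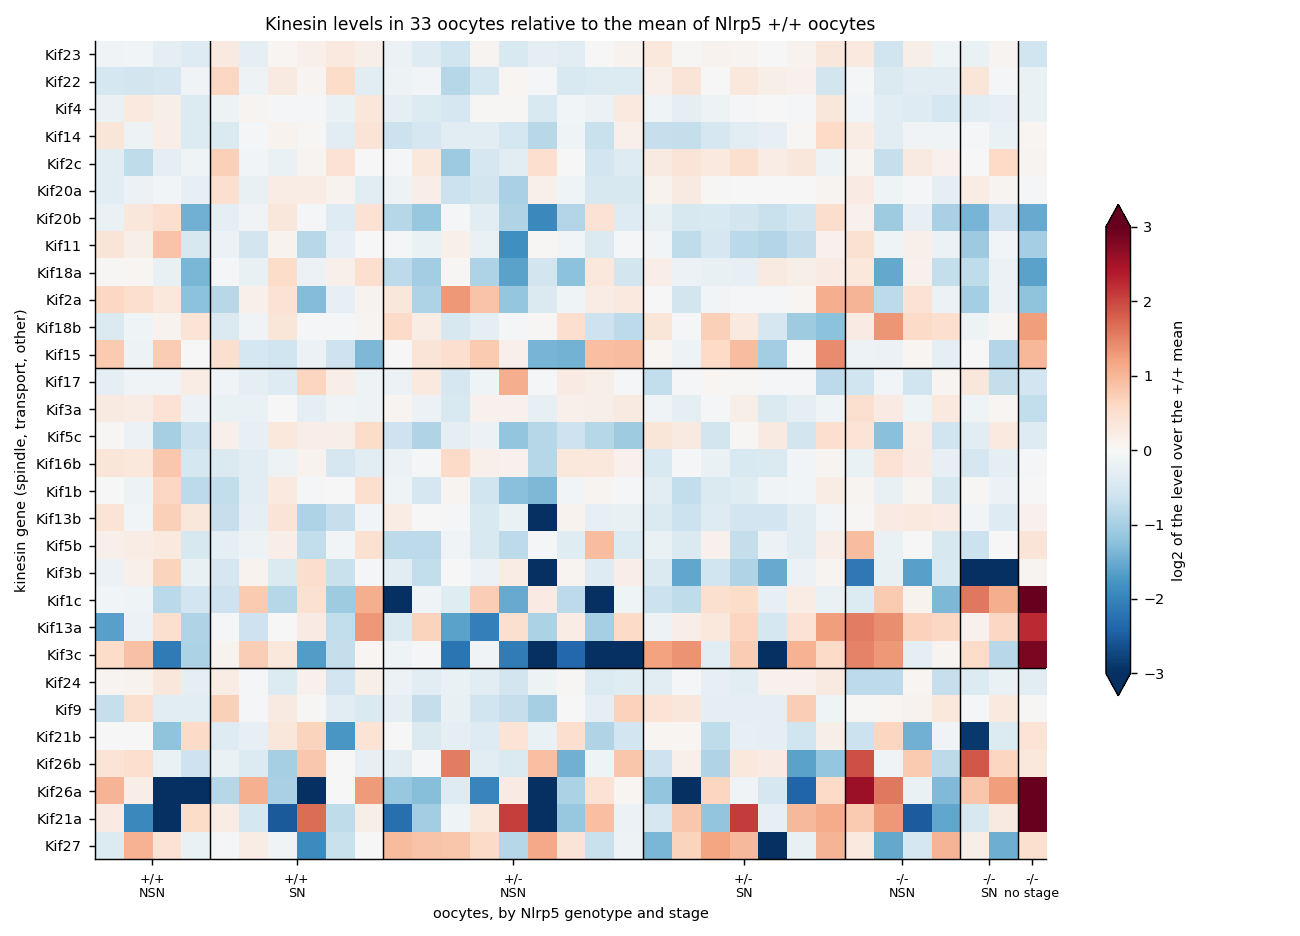
Log2 level of 30 kinesins (rows, by role and, within it, mean level) in 33 oocytes (columns, by Nlrp5 genotype and stage) relative to the mean of Nlrp5 +/+ oocytes, with a pseudocount of 1 and colours ending at 3 on either side. Kif3b is low in the 2 SN -/- oocytes, at 16.2 and 15.9 normalized counts, and in some NSN oocytes, such as -/- oocyte 13 at 35.1 and +/- oocyte 61 at 0, and rare members such as Kif26a and Kif21a scatter between oocytes of each group.

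For the most abundant transport and other kinesins, the ranges of -/- and +/+ oocytes overlapped at the SN stage. Kif17 was at 1857 ± 543 normalized counts in SN +/+ oocytes (SD, n = 6) and at 2275 and 1106 in SN -/- oocytes, and Kif16b at 288.3 to 441.1 and at 287 and 337. Kif9 was at 177 ± 54.4 in SN +/+ oocytes and 183 ± 29.8 in SN -/- oocytes. Kif24 was at 578.6, 449.9, 688.3 and 582.7 in NSN +/+ oocytes and at 317.5, 317.3, 563.5 and 339.7 in NSN -/- oocytes, with a log2 fold change of -0.58 at that stage and -0.25 in SN oocytes. For Kif24, 3 of 4 NSN -/- oocytes lay under all NSN +/+ oocytes and the remaining one within their range.

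Genes that work with kinesins were counted from lists of kinesin partners, dynein and dynactin, spindle assembly factors and tubulins. In SN oocytes, 0 of 17 measured partners, which include the kinesin light chains and kinesins named outside the pattern, were 2-fold apart between -/- and +/+, beside 5.99% of all genes 2-fold lower and 4.07% higher, shares that also stand beside the next 3 lists. Of the partners 11 were higher and 6 lower. Klc1, a kinesin light chain, was at 298.2 to 318.4 normalized counts in SN -/- and 178.1 to 274.6 in SN +/+ oocytes. It lay above without overlap at both stages with a log2 fold change of 0.46 at each, beside 7.24% of genes in SN and 3.96% in NSN oocytes. Of the 17 partners, 3 lay above without overlap in NSN oocytes, Klc1, Klc4 (0.96) and Kifc3 (0.82), and 0 lay below. In SN oocytes 1 lay above and 1 below. Of 28 dynein and dynactin genes 1 was 2-fold lower, Dync1i1, an intermediate chain of dynein, at 18.3 against 98.8 normalized counts with overlapping ranges. It was lower at the NSN stage too, at 10.7 against 96.5, again with overlap. Of 27 spindle assembly factors 1 was 2-fold lower, Nedd1, which brings the gamma-tubulin ring complex to the spindle, at 553.2 to 686.7 in SN -/- and 1175 to 1784 in SN +/+ oocytes. Its log2 fold change was -1.32 in SN and -0.065 in NSN oocytes, and the difference between stages was not tested. Of 14 tubulins 1 was 2-fold higher, Tuba3b, at 1455 to 1585 against 274.1 to 1023 in SN oocytes. It was higher at the NSN stage too, with a mean of 707.8 against 251.3, a log2 fold change of 1.49 with overlap. Alpha-tubulin genes share sequence, so its reads may be split between copies. Of the 14 tubulins 11 were higher at each stage, beside 6657 of 13351 genes in SN and 6927 of 13833 in NSN oocytes, the median log2 fold change being 0.49 at the NSN and 0.39 at the SN stage. In NSN, +/- oocytes had 12 tubulins higher than +/+ oocytes and 2 lower, with a median of 0.33, and -/- oocytes had 9 higher than +/- oocytes and 5 lower, with a median of 0.066. In SN, these were 5 higher and 9 lower (median -0.057) for +/- over +/+ oocytes and 12 higher and 2 lower (median 0.32) for -/- over +/- oocytes. Beside 7.24% of genes in SN and 3.96% in NSN oocytes, 3 tubulins lay above +/+ oocytes without overlap at each stage, which were Tuba1b, Tuba3b and Tubb2a in SN and Tubb2a, Tubb2b and Tubb3 in NSN oocytes. Cenpe, the kinetochore kinesin whose symbol lies outside the pattern, was at 1334 ± 101 in SN -/- and 1896 ± 312 in SN +/+ oocytes without overlap, a log2 fold change of -0.51, and 7.85% of all genes lay below without overlap.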

How the data were processed

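RNA was measured in 33 single germinal vesicle oocytes with a protocol based on Smart-seq2 that separates RNA from DNA. Reads were trimmed (Trim Galore) and aligned (HISAT2) per the labels, and the authors deposited their raw read count on each gene and a read total for each library. The coordinates of the table are GRCm38, although the methods name GRCm39. The strand setting and version of the counter are not given in the sources used here. Deposited tables of fold change and p-value from the authors' own comparisons were not used.

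Of 35373 entries, 52 repeated identifiers were left out. Counts were divided by size factors (median of ratios over all 33 oocytes), giving normalized counts. Levels per kb used the exon length of each gene in GENCODE vM39. Genotype came from the labels and stage from figures of the study. Fold changes are log2 ratios of mean normalized counts plus a pseudocount of 1, for genes with a mean of at least 10 in the oocytes compared, and 2-fold was the size counted. Because the labels name no mouse, each group counts as 1 sample and no test between groups was made. Depth was 4223595 to 15573360 counts per oocyte, and 95% Poisson intervals describe counting error alone. Simulated data with known changes were used to check the fold changes. Promoters are RefSeq sequences for 32 of the 39 symbols.

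The members and gene lists were chosen with earlier results of these data known. Genes named are Kif3b, members 2-fold apart between -/- and +/+ oocytes, the 3 highest per length in each role, the 3 largest differences in either direction between stages in +/+ oocytes, and listed partner genes 2-fold apart. Others, such as Kif20b, Kif4, Kif11, Kif18b, Kif2c, Kif20a, Kif3c, Kif5a, Kif1a, Kifap3, Klc1, Cenpe, tubulins and marker genes, were named after their values were seen. Alternatives were other scalings (total count, TMM), medians over oocytes, a pseudocount of 5, other filters, no regard to stage, and leaving out each oocyte. Leaving out oocytes 7, 13 and 14 together, and keeping to markers of other cells with a mean under 50 in +/+ oocytes, were chosen after seeing the data. The software was Python 3.11.15 with pandas 2.3.3, numpy 2.4.6 and scipy 1.17.1, and figures were drawn with matplotlib 3.10.9.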

Additional observations from a re-analysis of the deposited data

Results flagged for a closer look

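In groups of 4 to 10 oocytes, an oocyte was singled out where its gap to the nearest other, as a share of the group's log2 range, passed Dixon's 95% critical value. Of 95 groups of 19 named kinesins examined, 6 held such an oocyte, and chance gives about 1 in 20.

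Oocyte 61 (NSN +/-) had 0 normalized counts of Kif3b, beside 94.8 to 184.9 in the other 8, and 9.479 of Kif13b, beside 280.6 to 451.8. Its theca and interstitial marker reads, 391.5 CPM, were also the highest of the +/- oocytes, and their part was not tested. Kif17 was at 3861 in NSN +/- oocyte 56, beside 1268 to 2214. Kif22 was at 2515 in NSN +/+ oocyte 87, beside 1855 to 1909, and at 1837 in SN +/- oocyte 55, beside 2690 to 3551. Kif24 was at 563.5 in NSN -/- oocyte 29, beside 317.3 to 339.7.

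Oocyte 15, the -/- oocyte without a stage, was used in no comparison within a stage. Of 34 kinesin genes with more than 3 reads in it, 7 were 2-fold or more above the highest +/+ oocyte, beside 18.3% of all genes by the same rule. These were Kif1a at 31.94 normalized counts (highest +/+ oocyte 2.01), Kif1c at 301.7 (68.7), Kif21a at 137.8 (45.8), Kif26a at 222.7 (40.7), Kif3c at 75.65 (18.9), Kif6 at 18.49 (4.82) and Kif7 at 23.53 (4.01). Ticrr overlaps Kif7, and their reads cannot be told apart. The same library had 1316 CPM of all 16 granulosa markers, 727.2 of theca and interstitial markers and 298.1 of stroma, vessel and blood markers, each the highest of all 33. Their part in these values was not tested.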

How the results depend on the processing

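No paired analysis was possible because the labels give no replicate numbers that groups share. Among the counts, medians and named members recomputed, no 2-fold difference changed sign except that of Kif26a, given at the end, and the other scalings and the pseudocount of 5 left each count within 1.5 times. Without a filter on low counts, members 2-fold apart numbered 6 for NSN -/- against +/+, 5 for NSN -/- against +/-, 3 for NSN +/- against +/+, and 1, 3 and 4 for SN against NSN in +/+, +/- and -/- oocytes. With a filter of 100 they numbered 1 for -/- against +/+ at either stage and 0 for -/- against +/- at either stage and for SN against NSN in -/- oocytes, where the median log2 fold change became -0.050; fewer genes are then measured. Medians over oocytes gave 1 for SN against NSN in +/- oocytes. Without regard to stage, with oocyte 15, 6 members were 2-fold apart between -/- and +/+ and 4 between -/- and +/-, with a median of 0.12, and Kif3b was at -1.04 and -0.62. Leaving out each oocyte gave 1 (without -/- oocyte 13) to 5 (without 30) for NSN -/- against +/+, 2 (without -/- oocyte 7) to 5 for SN -/- against +/+, and 4 to 8 (without -/- oocyte 31) for SN -/- against +/-. It gave 0 to 1 for +/- against +/+, where the 1 came without +/+ oocyte 87 in NSN and without 69 or 80 in SN. For SN against NSN it gave 0 to 1 in +/+ oocytes (1 without 69, 70 or 87), 0 to 1 in +/- oocytes (1 without 56), and 3 to 7 in -/- oocytes (4 without 13 or 29, 5 without 7, 7 without 31). The medians ranged from -0.26 to -0.024 for SN -/- against +/- and from -0.29 to -0.030 for SN against NSN in -/- oocytes. Kif3b in SN -/- against +/+ ranged from -3.21 to -2.95. Without the -/- oocytes highest in granulosa markers (7, 13 and 14), an alternative chosen after seeing the data, Kif26a turned to -0.39 in NSN -/- against +/+ and to -0.073 against +/-. Members 2-fold apart then numbered 2 for -/- against +/+ at either stage, 1 for NSN -/- against +/- (median -0.0054) and 4 for SN against NSN in -/- oocytes (median 0.025). Each SN -/- value rests on 2 oocytes.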
